A study of Mus musculus with 6 samples.

Results

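Acinar cells are the enzyme-secreting cells of the exocrine pancreas, and in the pancreatic tumours examined here they were cells in which the summed RNA of 8 acinar genes made up at least 10% of the cell. The cells were selected on the UMIs of Ctrb1, Prss2, Try5, Cpa1, Cel, Clps, Pnliprp1 and Reg2 as a share of all UMIs of the cell, UMIs being the unique molecular identifiers that count captured RNA molecules. Of 54911 cells that passed the filter, 116 met the rule. The filter asked for 500 or more UMIs, 300 or more detected genes and no more than 20% of UMIs from mitochondrial genes. The choice used these measured values, so the levels of the 8 genes, and any contrast of these cells with the others, are given as descriptions without a test.

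The tumours came from KPC mice carrying P53LSL.R172H/+ and Pdx1-Cre in all groups. The P53 allele is activated by a Cre recombinase under the Pdx1 promoter, which is active in the pancreatic epithelium from early development, so both acinar and ductal cells can carry the active form. The mice of the 3 treated tumours received IPI-926, a small molecule that blocks Smoothened and so Hedgehog signalling, at 40 mg/kg (5 mg/ml) by daily oral gavage over 2 days, and those of the 3 control tumours the vehicle, 5% hydroxypropyl-beta-cyclodextrin. All were collected 2 h after the last dose, trimmed of healthy pancreas, digested with trypsin and other enzymes for 42 min at 37 °C and passed through a 40 µm strainer, and each gave 1 library of the 10x Genomics 3' v3 kit. Ages of the mice were not given in the sources used here, and no label states that the samples of a group came from separate animals, so a p-value here covers the spread between samples.

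The normal acinar cell makes proenzymes such as trypsinogens, chymotrypsinogens, lipases and amylase, packs them into zymogen granules and releases them when cholecystokinin or nerves signal. Its programme is held by the transcription factor complex PTF1, which contains Ptf1a and its partner Rbpjl, together with Nr5a2 and Bhlha15. Under injury or in early neoplasia, acinar cells can lose enzymes and take on duct genes such as Krt19 and Sox9, a change called acinar-to-ductal metaplasia that is regarded as a starting point of pancreatic ductal neoplasia.

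The acinar cells came almost entirely from vehicle tumours, and most from 1 of them. Vehicle replicate 1 gave 8 acinar cells of 7071 (0.113%, exact 95% binomial interval 0.0489 to 0.223), vehicle replicate 2 gave 16 of 9346 (0.171%, 0.0979 to 0.278) and vehicle replicate 3 gave 88 of 7400 (1.19%, 0.955 to 1.46). IPI-926 replicate 1 gave 2 of 8055 (0.0248%, 0.00301 to 0.0897), IPI-926 replicate 2 gave 1 of 6613 (0.0151%, 0.000383 to 0.0842) and IPI-926 replicate 3 gave 1 of 16426 (0.00609%, 0.000154 to 0.0339). All 3 vehicle libraries lay above all 3 IPI-926 libraries, with means of 0.491% ± 0.605 and 0.0153% ± 0.00937 (SD, n = 3 each). The two-sided exact permutation p was 0.1, the smallest that 20 assignments of 6 libraries allow, and the vehicle SD exceeded the difference of the means. Without vehicle replicate 3 the vehicle mean was 0.142%. Healthy pancreas was trimmed away before digestion, the labels do not say how completely, and its part in these shares was not tested.

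The libraries held between 100810942 and 174929328 UMIs, and a kept cell had a median between 2775 and 8057. Vehicle replicate 3, which gave 75.9% of the acinar cells, was the library with the highest median per cell. IPI-926 replicate 3 stood apart: it gave all or nearly all cells of several clusters of different cell classes, among them 4217 of 4224 cells of an unnamed cluster and all 2153 of a fibroblast cluster, none of them acinar. No 2 libraries shared more than 59 barcodes, and no acinar barcode was shared. RNA of the 8 genes also occurred outside acinar cells: in neutrophils, macrophages, T and B cells together it was 0.0361% of UMIs in vehicle replicate 3, 0.00839% and 0.00852% in vehicle replicates 1 and 2, and between 0.00134% and 0.00630% in the IPI-926 libraries. The 10% threshold lies far above this level, but the level is pooled over many cells while the threshold applies to each cell. The part of stray RNA in single barcodes was not tested.

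The acinar cells ranged widely in depth and were divided at 5000 UMIs, with none between 4678 and 6535 UMIs. None lay between 9400 and 14121 UMIs either, so the division is not the only gap. Of the 116, 66 had at least 5000 UMIs, a division chosen after the values were seen, with a median of 43497 UMIs and 5548.5 genes per cell. The other 50 had a median of 1654 UMIs and 403.5 genes. The deep cells numbered 55 of 88 in vehicle replicate 3, 5 of 8 in vehicle replicate 1 and 3 of 16 in vehicle replicate 2. In the IPI-926 libraries they were both cells of replicate 1 and the 1 cell of replicate 2. Mitochondrial RNA had a median of 2.36% in the deep cells and 3.57% in the shallow ones. Among shallow cells the median share of the 8 genes was 28.3%, against 20.9% among deep cells.

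**Figure D1:**
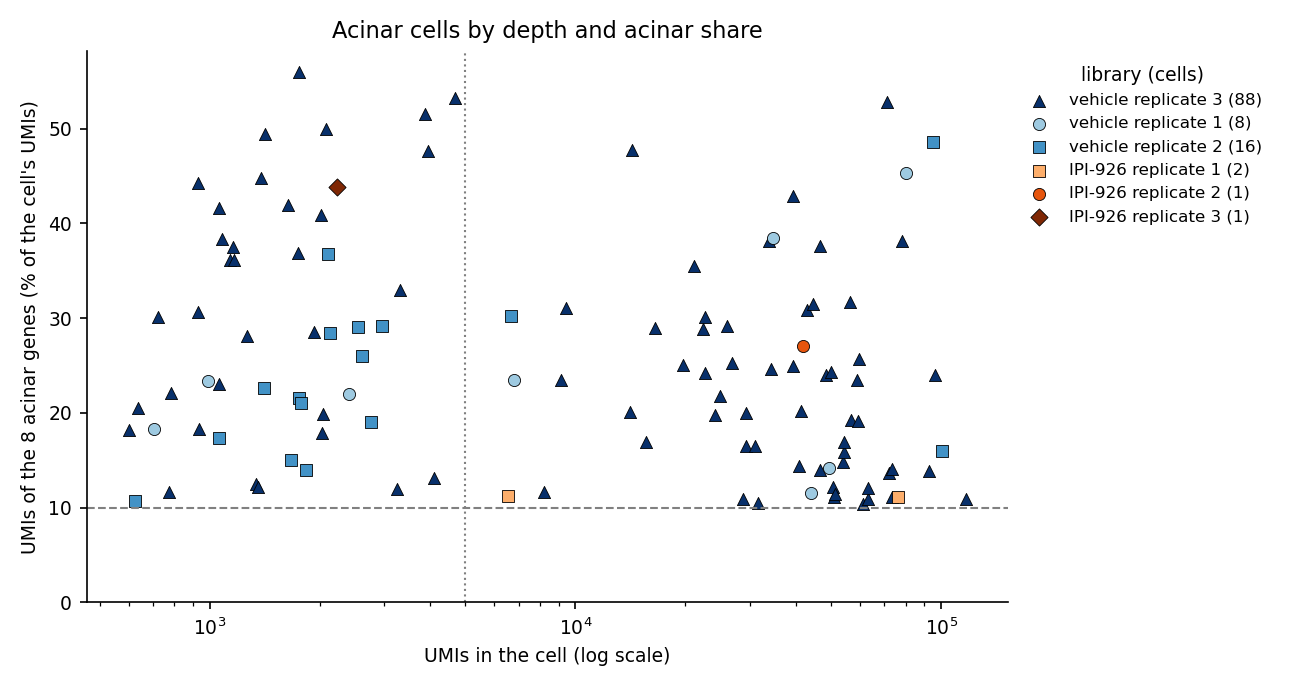
Each point is 1 of the 116 acinar cells, with its UMIs on a log axis and the percent of them that fell on the 8 acinar genes; colour and shape give the library, the dashed line the 10% threshold and the dotted line 5000 UMIs. Vehicle replicate 3 (88 cells) spans both depth ranges, and 13 of the 16 cells of vehicle replicate 2 lie below 5000 UMIs.

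The share of the 8 genes reached 55.9% and had a median of 23.4%. It lay between 10% and 15% in 28 cells, between 15% and 20% in 17, between 20% and 30% in 34, between 30% and 50% in 33, and at 50% or more in 4. Just inside the threshold, 15 cells had 10% to 12% (median 11.1%, 44109 UMIs), and just outside it 17 cells had 8% to 10% (median 8.95%, 34214 UMIs). The distribution ran on below the threshold, since 180 cells had a share of at least 5%.

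Chymotrypsinogen dominated the 8 genes. Ctrb1, which encodes chymotrypsinogen B (ENSMUSG00000031957, GRCm38 chromosome 8 from 111686519 to 111691010), had UMIs in all 116 cells. It made up a median of 9.45%, 9.57% and 12.8% of a cell's UMIs in vehicle replicates 1, 2 and 3, and 4.87%, 7.41% and 17.6% in IPI-926 replicates 1, 2 and 3, the last pair being single cells. The trypsinogen gene Prss2 (ENSMUSG00000057163, chromosome 6 from 41521787 to 41525079) had medians of 5.30%, 4.21% and 5.21% in vehicle and 1.42%, 6.76% and 9.42% in IPI-926 replicates. Ctrb1 had the highest median of the 8 in each of the 6 libraries. Reg2, a secreted protein of the regenerating islet family, had a median between 1.71% and 9.69% and stood second in IPI-926 replicates 1 and 3.

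The levels of the other 5 genes varied between libraries. The trypsinogen Try5 had a median between 0.808% and 4.41% over the 6 libraries and stood second of the 8 in vehicle replicate 2, and the carboxypeptidase Cpa1 between 0.311% and 0.938%. Cel, the bile salt-activated lipase, ranged from 0.00525% to 0.773%, and Clps, the colipase that anchors pancreatic lipase, from 0.239% to 4.58%. The lipase-related Pnliprp1 ranged from 0.331% to 2.44%. In the 66 deep cells each of the 8 genes had a UMI in at least 63, and Ctrb1, Prss2, Try5 and Cpa1 in all 66. Trypsinogen genes are near-identical copies in 1 array, so how reads divide among Prss2, Try5 and their relatives is uncertain.

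The start regions of these genes are shown because the enzymes and the PTF1 genes were present in the same cells. Windows of 250 bases before the start were taken from RefSeq (GRCm38.p6) for 3 genes of the rule and for Rbpjl, on the strand of the gene, with 1 window per gene as first listed. Capitals mark 3 motifs searched on both strands: the E-box CACCTG, the TC box TTCCCA, which are both parts of the site that PTF1 is known to bind, and AAGGTCA, the core read by Nr5a2. Motifs may overlap one another.
Ctrb1, chr8:111691011-111691260, minus strand: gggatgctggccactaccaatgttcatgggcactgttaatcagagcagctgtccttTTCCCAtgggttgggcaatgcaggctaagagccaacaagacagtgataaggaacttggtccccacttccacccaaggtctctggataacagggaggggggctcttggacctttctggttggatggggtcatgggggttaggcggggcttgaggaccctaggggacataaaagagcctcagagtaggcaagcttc
Prss2, chr6:41521526-41521775, plus strand: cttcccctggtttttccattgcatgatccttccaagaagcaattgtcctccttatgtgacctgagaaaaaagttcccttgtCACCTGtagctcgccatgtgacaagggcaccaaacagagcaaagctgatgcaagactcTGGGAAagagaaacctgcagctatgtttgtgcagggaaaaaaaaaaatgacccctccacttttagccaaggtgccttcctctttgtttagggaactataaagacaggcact
Reg2, chr6:78404905-78405154, plus strand: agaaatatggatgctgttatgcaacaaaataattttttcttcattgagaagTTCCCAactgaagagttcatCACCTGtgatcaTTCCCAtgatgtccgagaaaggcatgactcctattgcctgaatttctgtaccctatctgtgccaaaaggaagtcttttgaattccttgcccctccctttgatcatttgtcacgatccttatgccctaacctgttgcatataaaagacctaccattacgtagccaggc
Rbpjl, chr2:164402944-164403193, plus strand: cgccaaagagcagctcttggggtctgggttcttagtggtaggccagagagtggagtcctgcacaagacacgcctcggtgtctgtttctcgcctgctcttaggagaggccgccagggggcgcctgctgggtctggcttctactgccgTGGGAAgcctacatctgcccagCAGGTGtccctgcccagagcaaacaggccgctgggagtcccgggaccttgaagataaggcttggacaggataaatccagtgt

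RefSeq windows were found for 6 of the 8 genes, and all 6 had TTCCCA, 3 had CACCTG and 1 had AAGGTCA. Of all 27025 windows there, 21.5% had TTCCCA, 17.1% had CACCTG and 4.05% had AAGGTCA. Among the 38 windows found for the 47 genes of the rule, enzyme and granule lists, 22 had TTCCCA, 21 CACCTG and 5 AAGGTCA. Of 11 windows found for the 18 duct genes, 2 had TTCCCA, 7 had CACCTG and none had AAGGTCA. These are matches of letters, not measured sites.

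When the 8 genes were not read, nearly all of the cells still fell in 1 cluster named acinar. This clustering still read the other enzyme and granule genes, among them relatives of Prss2 and Try5, so it is no independent check of identity. All 54911 cells were clustered without the 8 genes, and 115 of the 116 fell in 1 cluster of 254 cells. It was led by Gm2663, Try4, Sycn, Prss3, Cela3b and Cpb1, with 8 acinar markers detected. The remaining cell, of under 5000 UMIs, fell in a shallow ductal cluster. The acinar cluster also held 139 cells below the threshold, 99 of them from vehicle replicate 3, with a median share of 4.06% and a median of 24632 UMIs. Their library split was 16, 18 and 99 in vehicle replicates 1 to 3 and 1, 5 and 0 in IPI-926 replicates 1 to 3.

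With the enzyme and granule genes removed as well, no cluster could be named acinar, because all acinar markers were among the genes left out. In this setting 102 of the 116 cells lay in clusters named ductal. Of these, 52 cells, all deep, were in a cluster of 2134 led by Gc, Csf2 and Ctla2a, and 41, 37 of them shallow, in a cluster of 1859 with a median of 906 UMIs led by Gkn2, Gkn1 and Tff1. A further 5 and 4 cells lay in 2 other ductal clusters. Of the other 14 cells, 9 were in an unnamed cluster, 2 in a macrophage cluster and 1 each in a neutrophil, a mesothelial and a fibroblast cluster. Outside the secretory genes, most deep acinar cells thus grouped with deep ductal cells and most shallow ones with shallow ductal barcodes.

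**Figure D2:**
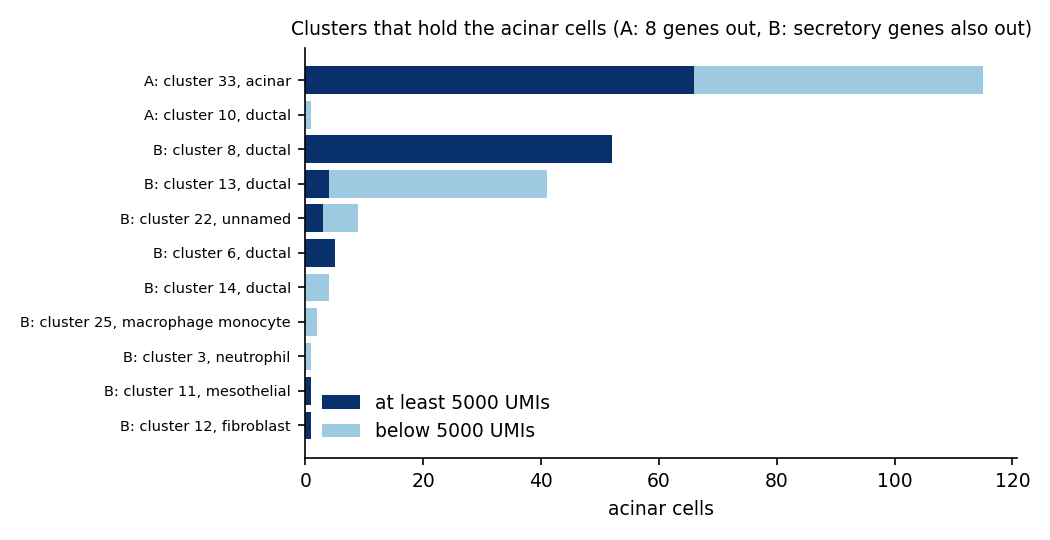
Bars count the acinar cells in each cluster that held any, split at 5000 UMIs. In A the 8 genes were left out and 115 cells share cluster 33; in B the enzyme and granule genes were left out too, and clusters named ductal hold 102.

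For levels, UMIs were summed over the acinar cells of a library and scaled to a total of 1000000 (CPM). The comparison with ductal cells used vehicle replicate 3, the only library with at least 20 acinar cells: 88 acinar cells with 2480294 UMIs against 3447 ductal cells with 91750138, from clusters named ductal. It has no replicate. The ratio is log2((CPM acinar + 5)/(CPM ductal + 5)). Of 8189 genes at 10 CPM or more in either sum, the 8 genes left aside, 76 (0.928%) were more than 4-fold higher in acinar cells and 76 (0.928%) more than 4-fold lower. The median log2 ratio over all genes was -0.33, and 0.02 when CPM were taken over UMIs outside the rule, enzyme and granule lists. With TMM scaling 90 genes were higher and 50 lower. The rule used this same contrast, so the counts below describe the cells and support nothing.

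Of the 25 further enzyme genes in the files, 14 reached 10 CPM in vehicle replicate 3 and 13 of these were past 4-fold higher, with a median log2 ratio of 5.49. The most abundant was the trypsinogen Prss3 at 1537 CPM against 1.32 in ductal cells, though 30 of the 55 deep cells carried it and its highest cell reached 43048 CPM. Cpb1, carboxypeptidase B1, was at 859 CPM against 1.09. The lipase-related Pnliprp2 was at 597 CPM, the elastase Cela2a at 540, the ribonuclease Rnase1 at 523 and the trypsinogen-like 2210010C04Rik at 383, each below 3 CPM in ductal cells. Levels differed widely within the list, and several major enzymes were scarce in vehicle replicate 3.

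Pnlip, pancreatic triglyceride lipase, stood at 11.3 CPM in vehicle replicate 3, 159 in vehicle replicate 1 and 6546 in vehicle replicate 2, and at 24.2, 598 and 0 in IPI-926 replicates 1, 2 and 3. Ctrc, chymotrypsin C, was at 2.82 CPM in vehicle replicate 3, 36.5 in replicate 1 and 4620 in replicate 2. Pla2g1b, the secreted phospholipase of pancreatic juice, was at 3.23, 0 and 1209 CPM in the same order. Vehicle replicate 2 was the high library for all 3 genes, and 1 of its 16 cells stood apart. That cell had 94769 UMIs, of which 81.8% fell on secretory genes, and gave 1447 of the library's 1489 acinar Pnlip UMIs, 1000 of 1051 for Ctrc and 268 of 275 for Pla2g1b. Few UMIs were assigned to amylase genes. Amy2a5, the most abundant of the copies counted, had 85 UMIs in all 116 cells. It was at 2.82 CPM in vehicle replicate 3 and 454 in the cell of IPI-926 replicate 2. Amylase copies are nearly identical, and Ctrc overlaps Cela2a in the annotation, so how reads divide among these genes is uncertain. Reads that could not be assigned to 1 copy may be missing, so the amylase level of these cells is uncertain too.

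Granule and REG proteins outside the rule summed to 31153 CPM in the acinar cells of vehicle replicate 3 and to between 73197 and 146103 CPM in those of the other 5 libraries. Of 12 genes, all reached 10 CPM and 10 were past 4-fold higher, with a median log2 ratio of 3.95. Reg1, a secreted protein raised in pancreatic injury (ENSMUSG00000059654, chromosome 6 from 78422711 to 78428667), was at 58420, 22324 and 16534 CPM in vehicle replicates 1, 2 and 3 and at 72868, 66689 and 38565 in IPI-926 replicates 1, 2 and 3. Vehicle replicate 3 was the lowest of the 6, and its ductal cells held 891. Reg3b, an antibacterial lectin of the same family, was at 29739, 22346 and 11444 CPM in vehicle and 50437, 56954 and 56951 in IPI-926 replicates. The IPI-926 values are sums over 2, 1 and 1 cells, so the groups were not compared. The granule protein Sycn, syncollin, was at 1300 CPM against 2.81 in ductal cells, Gp2, the main granule membrane glycoprotein, at 514 against 25.1, and the trypsin inhibitor Spink1 at 304 against 3.25. Dmbt1, a scavenger receptor protein of ducts and glands, was lower than in ductal cells, at 403 against 897 CPM, without passing 4-fold.

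Of 7 genes of the secretory machinery that reached 10 CPM, 2 were past 4-fold higher. These were Cckar, the cholecystokinin receptor through which meals trigger secretion, at 176 CPM against 1.51, and Erp27, an endoplasmic reticulum protein, at 22.2 against 0.185. Cckar was present at 242, 92.3 and 176 CPM in vehicle replicates 1, 2 and 3, with 363, 526 and 0 in IPI-926 replicates. Nupr1, a stress-induced nuclear protein, was the most abundant at 3661 CPM against 1301. Sel1l, of the degradation complex of the reticulum, was at 158 against 36.7, and Fkbp11, a folding enzyme of secretory cells, at 51.2 against 24.1. These 3 genes did not pass 4-fold.

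Of 5 acinar transcription factors at 10 CPM, 4 were past 4-fold higher than in ductal cells. Ptf1a, the defining factor of the lineage (ENSMUSG00000026735, chromosome 2 from 19445663 to 19447501), was at 114, 92.3 and 137 CPM in vehicle replicates 1, 2 and 3 and at 96.7, 120 and 0 in IPI-926 replicates 1, 2 and 3. The vehicle libraries lie close together, but in replicates 1 and 2 a few deep cells gave most of the UMIs. In vehicle replicate 1 the cell of 80359 UMIs gave 19 of 25 Ptf1a UMIs. In vehicle replicate 2 the cells of 94769 and 100807 UMIs gave 9 and 10 of 21. The 0 comes from the single cell of 2230 UMIs. In the ductal cells of vehicle replicate 3 Ptf1a was at 0.556 CPM, a log2 ratio of 4.67. Rbpjl, its partner in PTF1, was at 178, 22 and 157 CPM in the vehicle libraries and 72.6, 263 and 0 in the IPI-926 ones, against 1.16 in ductal cells (log2 ratio 4.72). Nr5a2, a nuclear receptor that sustains enzyme genes, was at 255, 30.8 and 158 CPM and 157, 71.8 and 0 in the same order, against 10.03 (3.44). Xbp1, the factor that expands the secretory reticulum, was at 743, 444 and 638 CPM and 798, 311 and 897, against 131 (2.24). Vehicle replicate 2 was the lowest of the 3 vehicle libraries for these 4 genes. Gata4, an endodermal factor, was at 28.2 CPM in vehicle replicate 3 against 11.3, which did not pass. Bhlha15, the maturation factor also called Mist1, had 17 UMIs in all 116 cells and was at 3.23 CPM, below the 10 CPM limit.

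Duct genes were present in the acinar cells, mostly at somewhat lower levels than in ductal cells. All 18 genes of the duct list reached 10 CPM in either sum, none was past 4-fold higher in acinar cells and only Car2, a carbonic anhydrase of duct epithelium, was past 4-fold lower (58.9 against 334 CPM). Their median log2 ratio was -0.90, or -0.54 over non-secretory UMIs, beside -0.33 and 0.02 for all genes. Summed, the 18 genes held 30661 CPM in acinar and 36484 in ductal cells of vehicle replicate 3. Over non-secretory UMIs the order turned, with 41053 against 36601. Clu and Spp1 made up most of both sums, and without them acinar cells held 3499 CPM against 7287. The 18 genes also summed to 39059 CPM in fibroblasts of that library, and to 4841 in neutrophils. The size of the sum alone therefore does not mark duct cells.

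Krt19, the cytokeratin used to mark pancreatic ducts (ENSMUSG00000020911, chromosome 11 from 100140810 to 100148665), was at 237, 185 and 804 CPM in the acinar cells of vehicle replicates 1, 2 and 3 and at 580, 0 and 0 in IPI-926 replicates 1, 2 and 3. Vehicle replicate 3 was the highest, and its ductal cells held 1700 CPM (log2 ratio -1.08). In its 55 deep acinar cells Krt19 ran from 0 to 2899 CPM with a median of 436. The keratin Krt7 was at 146, 101 and 407 CPM in vehicle and 339, 0 and 0 in IPI-926 libraries, against 1376 in ductal cells (-1.74). Sox9, the transcription factor of duct and progenitor cells (ENSMUSG00000000567, chromosome 11 from 112782224 to 112787760), was at 260, 83.5 and 306 CPM in the vehicle libraries with IPI-926 values of 60.5, 215 and 448, the last from 1 UMI. Sox9 in vehicle replicate 3 lay close to the 346 CPM of ductal cells (-0.17), and its deep acinar cells ran from 29.5 to 730 CPM with none at 0.

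Clusterin was the most abundant duct gene. Clu, a secreted chaperone induced in injured epithelium, was at 15785, 17264 and 21335 CPM in vehicle replicates 1, 2 and 3 and at 33206, 239 and 25560 in IPI-926 replicates 1, 2 and 3, against 20060 in ductal cells (0.09). Spp1, osteopontin, a secreted phosphoprotein of ducts and macrophages, was at 4106, 347 and 5827 CPM in vehicle and 5913, 47.8 and 17937 in IPI-926 replicates, against 9137 (-0.65). The cell of IPI-926 replicate 2 was low for both.

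Of the other duct genes, the chloride channel Cftr was at 133 CPM against 132 in ductal cells, the tight junction gene Cldn4 at 152 against 167, and the keratin Krt23 at 49.2 against 54.4. The mucin Muc1 was at 167 CPM against 286, the iron-binding lipocalin Lcn2 at 611 against 1012, and the tetraspanin Tspan8 at 364 against 697. Onecut2, a homeobox factor, was at 250 CPM against 678, the matrix protease Mmp7 at 130 against 319, and the stem cell marker Prom1 at 43.9 against 113. The water channel Aqp1 was at 2.42 CPM against 15.95. Cftr, Cldn4, Krt23, Sox9 and Clu were within a log2 ratio of 0.2 of ductal cells, and the others named here lower.

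**Figure D3:**
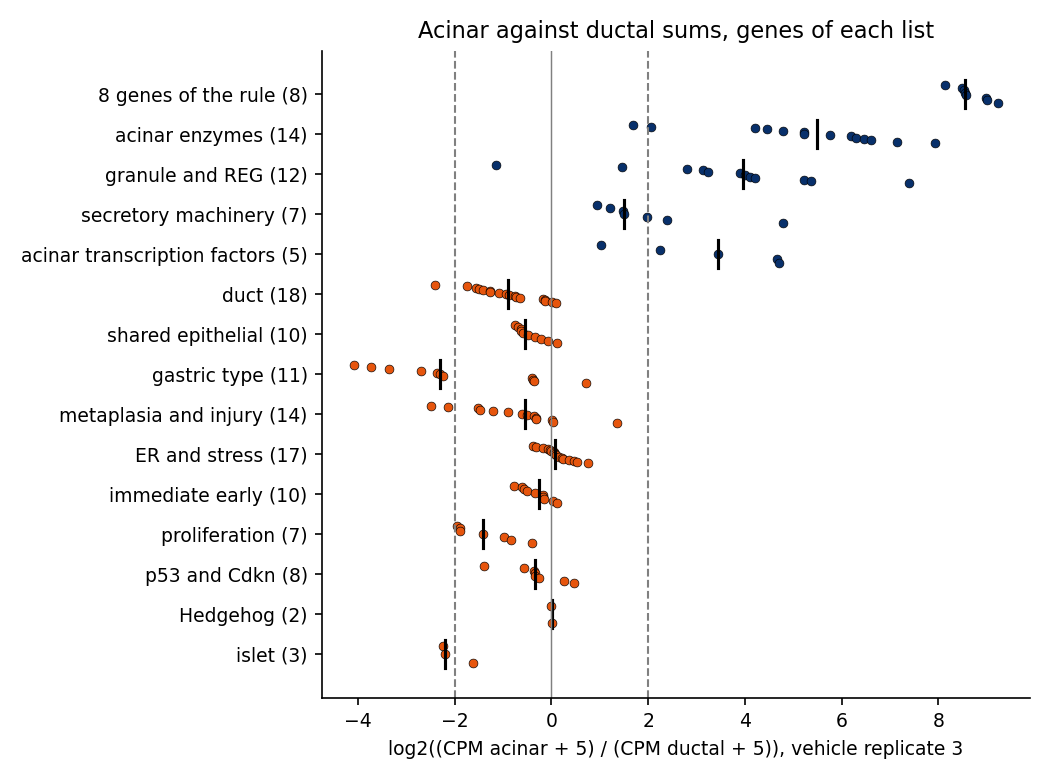
Each point is 1 gene at 10 CPM or more in either sum, placed by its log2 ratio of acinar to ductal CPM in vehicle replicate 3; black bars are list medians, dashed lines the 4-fold limits, and the number of genes stands in brackets. Acinar lists lie to the right, while all 18 duct genes lie left of 0.2 and 17 of them inside the 4-fold limits.

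Acinar and duct genes were found in the same cells. Of the 66 deep acinar cells, 62 had a UMI of Ptf1a and 63 of Rbpjl, and 60 had Krt19, 63 Krt7, 64 Sox9 and 65 Epcam. Krt19 and Ptf1a occurred together in 57 of the 66, Sox9 and Ptf1a in 60, and Krt19, Sox9 and at least 1 of Ptf1a and Rbpjl in 59. In vehicle replicate 3 the last count was 52 of 55, and in the other libraries 7 of 11. Of the 50 shallow cells, 17 had Krt19, 9 Sox9, 4 Ptf1a and 10 Rbpjl, and none had Krt19 with Ptf1a. A barcode that held an acinar and a ductal cell together would also count here, and the part of such doublets was not tested.

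UMIs of duct genes were also found in classes that should lack them. In vehicle replicate 3, 52 of 55 deep acinar cells had Krt19 (94.5%, median 42885 UMIs), but so did 42.8% of 670 macrophages and monocytes of at least 5000 UMIs (median 12353.5 UMIs). Over all depths Krt19 had a UMI in 75.0% of the 88 acinar cells, 94.0% of ductal cells, 42.2% of fibroblasts and 24.4% of neutrophils, with median depths of 22623, 16476, 10108.5 and 1267 UMIs. Ptf1a had a UMI in 0.149% of those macrophages and 0.945% of 2434 deep ductal cells (median 28019 UMIs), against 94.5% of deep acinar cells.

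Each cell was therefore thinned once, at random, to 1000 UMIs, leaving out 8 shallower acinar and 405 ductal cells. Krt19 then had a UMI in 33 of 80 acinar cells (41.2%, exact 95% interval 30.4 to 52.8) and 70.6% of 3042 ductal cells. It had one in 16.6% of 631 neutrophils (13.8 to 19.8), 7.33% of 382 fibroblasts and 4.35% of 759 macrophages and monocytes. The mean over all possible draws, computed without sampling, was 37.9% in acinar cells, 71.0% in ductal cells and 17.4% in neutrophils. Krt7 was found in 31.2% of acinar cells (21.3 to 42.6), 59.4% of ductal cells and 10.8% of neutrophils. Sox9 was found in 18.8% of acinar cells (10.9 to 29.0), 25.6% of ductal cells, 4.12% of neutrophils, 4.19% of fibroblasts and 1.71% of macrophages. Epcam, the epithelial adhesion molecule, was found in 58.8% of acinar cells, 77.0% of ductal cells and 13.0% of neutrophils. For Krt19, Krt7, Sox9 and Epcam the acinar share of vehicle replicate 3 lay between that of ductal cells and those of macrophages, neutrophils, T cells and fibroblasts. In the other 5 libraries, with 25 acinar cells deep enough, Krt19 had a UMI in 4 of 25 (16%, interval 4.54 to 36.1), Krt7 in 1, Sox9 in 0, for which the interval reaches 13.7%, and Epcam in 4. In this draw the shares were at or near the neutrophil shares of vehicle replicate 3 for Krt19 and Epcam and below them for Krt7 and Sox9. The means over all draws were below those of neutrophils for Krt19 (13.1% against 17.4%) and Krt7 (6.31% against 10.4%). They were above them for Sox9 (9.53% against 3.77%) and Epcam (22.1% against 11.8%), so the order for Sox9 depended on the draw. Those neutrophils come from another library, and stray RNA of the 8 genes differed between libraries. Whether the acinar shares exceeded the neutrophil shares of their own libraries was not tested.

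Clu and Spp1 told the classes apart less well at 1 depth. Clu had a UMI in each of the 80 thinned acinar cells but also in 73.9% of neutrophils, and Spp1 in 81.2% of acinar cells and 79.8% of fibroblasts. Ptf1a was found in 7.50% of acinar cells (2.80 to 15.6) and 0.0657% of ductal cells, with means over all draws of 10.5% and 0.116%. Rbpjl was found in 18.8% and 0.131%.

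The shallow acinar cells were closer to the background. Thinned, 8 of 25 of them in vehicle replicate 3 had Krt19 (32.0%, interval 14.9 to 53.5), against 25 of 55 deep cells (45.5%). Epcam was found in 8 of the 25 and in 39 of the 55. Their summed Krt19 was 292 CPM beside 212 in neutrophils of that library. Their summed duct genes held 13046 CPM, beside 4841 in neutrophils and 39059 in fibroblasts. A Krt19 share above that of neutrophils was not detectable in the shallow cells at this depth, since their interval includes the neutrophil share of 16.6%. Other classes had lower shares: 14.0% of T cells (5.82 to 26.7), 7.33% of fibroblasts and 4.35% of macrophages and monocytes. For Epcam the shallow cells had the same interval, 14.9 to 53.5, which lies above the 13.0% of neutrophils (10.5 to 15.9), though the intervals overlap.

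**Figure D4:**
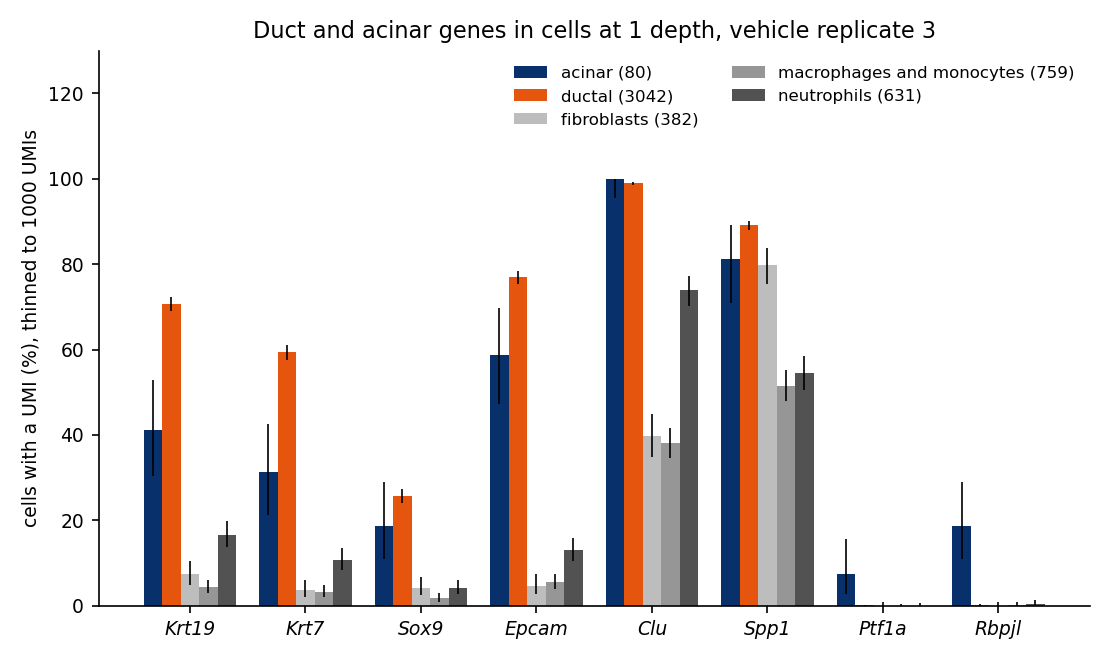
Bars give the percent of cells with a UMI of each gene after thinning every cell of vehicle replicate 3 to 1000 UMIs, with exact 95% binomial intervals, which cover counting error only, and cell numbers in brackets. Acinar cells have Krt19 in 41.2% and Ptf1a in 7.50%, and ductal cells in 70.6% and 0.0657%.

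Within the 55 deep acinar cells of vehicle replicate 3, several duct and metaplasia genes were lower in cells with a higher acinar share. Levels here are CPM over the UMIs outside the rule, enzyme and granule lists, so that secretory RNA does not dilute them. Spearman's rho with the share of the 8 genes was -0.69 for Anxa2, an actin and membrane-binding annexin, -0.66 for the calcium-binding S100a6, -0.63 for the actin-binding Tmsb10, -0.50 for Krt7 and -0.45 for Krt19. It was 0.71 for Rbpjl, 0.30 for Ptf1a and 0.36 for Nr5a2. It was near 0 for Clu (0.10) and Cftr (0.03) and -0.18 for Sox9. The cells share 1 library, and the UMIs of a cell also went down with the share (-0.31), with rho of 0.43 between Anxa2 and UMIs, so depth moved with the pattern and its part in it was not tested. The share is itself the rule's measure, and these values describe the range of cells without a test.

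Levels were also summed over bands of the share, with cells of the acinar cluster below the threshold beside them. S100a6 stood at 7664, 8132 and 6823 on this scale in cells with shares of 0 to 1% (10 cells), 1 to 5% (39) and 5 to 10% (36). It was then at 5582 from 10 to 15% (17 cells), 2302 from 15 to 25% (20), 496 from 25 to 40% (15) and 743 at 40% or more (3), beside 14517 in deep ductal cells. Krt19 was at 971, 1251 and 1160 in the 3 bands below the threshold and at 1462, 910, 536 and 520 in those above, beside 1698 in ductal cells, and so was highest at 10 to 15%. Krt7 was at 526, 756 and 682 below the threshold and at 663, 562, 292 and 223 above. Onecut2 was at 629, 661 and 588, then at 408, 324, 213 and 130. Sox9 stayed between 335 and 451 in all 7 bands, with 350 in ductal cells, and Clu between 20663 and 32909.

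Rbpjl and Ptf1a moved the other way along the bands. Rbpjl stood at 37.4, 26.9 and 64.4 on the same scale below the threshold and at 113, 199, 414 and 409 above it, beside 1.06 in ductal cells. Ptf1a stood at 27.4, 26.3 and 88.9 below and 144, 213, 207 and 372 above, beside 0.490. Cells of the cluster with a share under 1% thus held both factors above the ductal level, but the clustering had read these factors and the other enzymes. Cpb1 stood at 112 CPM from 10 to 15% and then at 630, 1718 and 2694, and Reg1 at 8899, 17637, 23893 and 30444. The top band holds 3 cells.

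**Figure D5:**
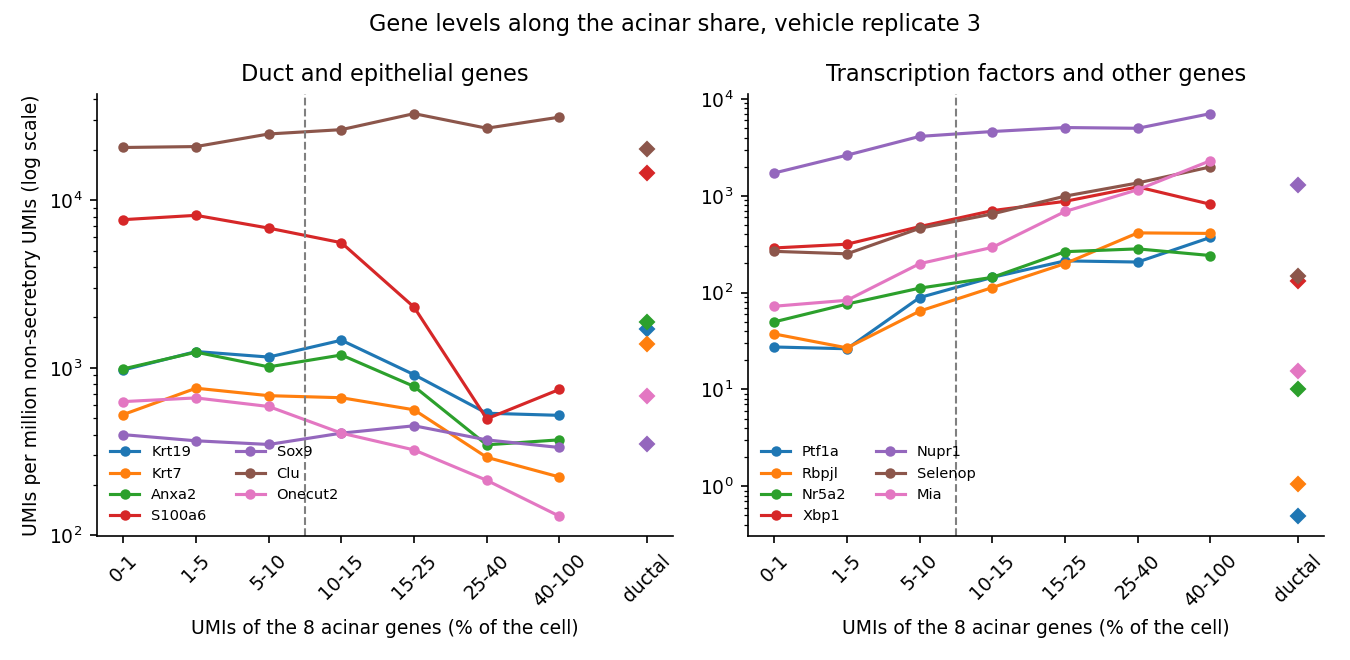
Lines give CPM over non-secretory UMIs, on a log axis, in deep cells of the acinar cluster of vehicle replicate 3 summed by bands of the 8-gene share; the dashed line is the 10% threshold and diamonds are deep ductal cells. S100a6 goes from 5582 at 10 to 15% to 496 at 25 to 40%, Rbpjl from 113 to 414, while Sox9 stays between 335 and 451.

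Deep acinar cells outside vehicle replicate 3 differed widely in duct UMIs. In vehicle replicate 2 the cell of 94769 UMIs had no Krt19 UMI, which allows up to 31.7 CPM, 1 UMI of Sox9, 24 of Clu and 9 of Ptf1a. Another cell of that library, with 100807 UMIs, had 38 UMIs of Krt19, 17 of Sox9, 3419 of Clu and 10 of Ptf1a. The deepest cell of vehicle replicate 1 (80359 UMIs, 45.3%) had 3 UMIs of Krt19, 13 of Sox9, 1030 of Clu and 19 of Ptf1a. The cell of IPI-926 replicate 2 (41806 UMIs, 27.1%) had no Krt19 UMI, 9 of Sox9, 10 of Clu, 5 of Ptf1a and 1238 of Try4. A count of 0 in that cell allows up to 71.8 CPM. The deeper cell of IPI-926 replicate 1 (76162 UMIs, 11.1%) had 48 of Krt19, 5 of Sox9, 2572 of Clu and 6 of Ptf1a. Cells with few duct UMIs and cells with many were thus seen in both groups, without a comparison of the groups.

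General epithelial genes summed to 6932 CPM in acinar and 10811 in ductal cells of vehicle replicate 3, and to 9282 against 10846 over non-secretory UMIs. Of 10 such genes at 10 CPM none passed 4-fold either way, which is near the 0.928% of all genes that passed in each direction. Their median log2 ratio was -0.54, beside -0.33 for all genes. The keratins Krt18 and Krt8 were at 2432 and 1761 CPM against 3914 and 2976, Epcam at 1349 against 2099 and the surface protein Cd24a at 458 against 579. Genes of gastric type, which pancreatic neoplasia of mouse and human is known to express, were past 4-fold lower in acinar cells for 7 of the 11 at 10 CPM, and 3 of the other 4 were lower without passing. Among them Tff2, a trefoil peptide of mucous neck cells, was at 1202 CPM against 7858, and Tff1, of surface mucous cells, at 160 against 1695. The protease Ctse was at 513 against 656. The gastrokine Gkn3 went the other way without passing, at 4515 against 2755 CPM (log2 ratio 0.71), and its rho with the acinar share was 0.46.

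Of 14 genes of metaplasia and injury, S100a6 (2556 against 14435 CPM) and the intermediate filament Vim (68.5 against 318) were past 4-fold lower and none higher. Of all genes 0.928% passed in each direction, so a short list with none passed is near the general share. Tmsb10 was at 1783 against 4144, Anxa2 at 651 against 1857, and the stress factor Atf3 at 626 against 955. None of 17 genes of the endoplasmic reticulum and its stress response passed, with Sec61b at 538 CPM against 607, Hsp90b1 at 528 against 527, Hspa5 at 459 against 385 and Ssr4 at 452 against 563. None of 10 immediate early genes, which tissue digestion is known to induce, passed, with Fos at 1322 against 1872, Jun at 901 against 832, Junb at 606 against 687 and Egr1 at 522 against 582.

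Proliferation genes were scarce. None of 7 was past 4-fold, with Pcna at 36.3 CPM against 75.9, Tyms at 21.8 against 30.5, Mcm6 at 5.24 against 13.2 and Mki67 at 1.61 against 12.5. The cell of IPI-926 replicate 2 stood apart, with 18 of the 22 acinar UMIs of Mki67 and 14 of the 19 of Top2a, both genes of dividing cells. Of 8 genes of p53 and the Cdkn inhibitors none passed, with Cdkn1a, the p21 cell cycle inhibitor, at 534 CPM against 387, Cdkn2a at 171 against 456, Cdkn2b at 145 against 174 and Ccng1 at 111 against 140. For lists of 7 and 8 genes, none passed is near the 0.928% of all genes that passed in each direction. Cdkn2a had a UMI in 45 of 55 deep acinar cells of vehicle replicate 3 and in 0 of 11 deep acinar cells of the other libraries.

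Hedgehog pathway genes, which the inhibitor addresses, were low in acinar cells. Smo, the target of IPI-926, was at 19.4 CPM in acinar and 19.0 in ductal cells of vehicle replicate 3, and the receptor Ptch1 at 14.9 and 15.04, neither past 4-fold. The ligands Dhh and Shh were at 6.05 and 3.63 CPM. Gli1, Gli2 and Hhip had 0 UMIs in all 116 cells, and in vehicle replicate 3 a count of 0 allows up to 1.21 CPM. Islet hormone genes were low as well, with Pyy at 27.4 CPM against 145, Ins2 at 7.26 against 8.27, Ppy at 3.63 against 35.6 and Ins1 at 2.42 against 4.48. Of the 3 islet genes at 10 CPM in either sum, Pyy and Ppy were past 4-fold lower.

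Outside the lists, the 15 genes of largest ratio were led by Gm2663 and Gm10334, 2 trypsinogen-like genes, at 2938 and 300.4 CPM against 3.59 and 0.469 in ductal cells. Mia, a small secreted protein, followed at 501 CPM against 15.3 (log2 ratio 4.64), then the interferon-induced Ifitm1 at 188 against 6.92 and the calcium-binding Cabp2 at 83.5 against 0.567. Igf1, a growth factor, was at 104 CPM against 2.37, the sterol-regulated Tmem97 at 292 against 15.2, and the prostaglandin receptor Ptger3 at 91.1 against 1.66. Procr, the protein C receptor, was at 538 against 36.6, the carboxypeptidase Cpn1 at 180 against 10.05 and the glutamine transporter Slc38a3 at 56.4 against 0.567. The trypsinogen-like 1810009J06Rik, the glutaminase Gls2, the nuclear receptor Nr0b2, which partners Nr5a2, and the imprinted gene Mest completed the set, with log2 ratios of 3.42, 3.39, 3.35 and 3.17. In the acinar cells of the other 5 libraries, summed, these 15 genes lay between 22.7 CPM for Slc38a3 and 1123 CPM for Gm2663.

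The 10 genes of smallest ratio were Ctla2a, Sprr2a3, Phgr1, Sptssb, Sprr1a, Csf2, Tnc, Aldh1a3, Spink4 and Ly6d. Ctla2a, a cathepsin inhibitor, was at 154 CPM against 2647 (log2 ratio -4.06), and the surface protein Ly6d at 134 against 1062 (-2.94). Sprr2a3 and Sprr1a, cornified envelope proteins, were at 3.63 against 113 and 12.5 against 158. The matrix protein Tnc was at 6.45 against 90.8, the retinal dehydrogenase Aldh1a3 at 6.85 against 87.8 and the cytokine Csf2 at 0.403, from 1 UMI, against 42.5. In the acinar cells of the other libraries the highest of the 10 was Ly6d at 59.3 CPM.

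Over 63 sums of cell class by library, 1 of them acinar, the genes whose log2(CPM + 5) ran most like the 8 genes together were Cpb1 (Pearson's r 0.85), Gm2663 (0.82), Sycn (0.81), Olfr873 (0.79) and Prss3 (0.79). Reg3b (0.78), Reg1 (0.78), Rnase1 (0.77), Cckar (0.76) and Gm10334 (0.76) followed. Olfr873, an olfactory receptor gene, reached only 13.7 CPM. The sums share libraries and depth, and the values are descriptive.

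Markers of other cell types were low in acinar cells beside the classes they mark, where these had enough cells. The 9 fibroblast markers held 169 CPM in the acinar cells of vehicle replicate 3, 50.7 in ductal cells and 15233.5 in fibroblasts, and 2 of the 116 cells carried 263 and 90 of the 485 such UMIs. Their part in the results was not tested. The 10 macrophage markers held 10.1 CPM against 7402 in macrophages, with 2 of the 10 at 0 in all 116 cells, and the 7 neutrophil markers 41.1 against 93702 in neutrophils. T cell markers held 48.0 CPM, with 6 of 10 at 0, B cell markers 2.02, endothelial markers 7.26 and islet hormone markers 10.5. Perivascular markers held 93.5 CPM against 67.1 in ductal cells and 13654 in perivascular cells. Fibroblast, perivascular and T cell markers (33.5 CPM in ductal cells) were above the ductal level, and the other sets below it. In the shallow acinar cells of vehicle replicate 3 the neutrophil markers held 258 CPM, against 44.3 in ductal cells. Plasma cell markers held 306 CPM, near the 343 of ductal cells. The highest T cell and macrophage sums in any acinar cell were 16 and 5 UMIs. Of the 116 cells, 0 were marked by doublet score, but the cell of 8219 UMIs in vehicle replicate 3 had a score of 0.0961, equal to the lowest score marked in that library. The caller's own threshold marked at most 2 cells of a library, so the scores say little about doublets of acinar and ductal cells.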

How the data were processed

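Raw UMI counts per gene and barcode of 6 libraries were analysed as deposited by the authors. The counting software was cellranger 6.1.2 per the file headers and Cell Ranger 2.1.1, with mm10, per the submitters' processing notes. The 32285 genes of each file were used. The members and gene lists were chosen with earlier results of these data known.

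Cells were clustered with scanpy 1.11.5 and leidenalg 0.10.2 (2000 variable genes, 30 components, 20 neighbours, resolution 1) without the 8 genes of the rule. Clusters were named from marker lists. No doublets were removed, because the caller's own threshold marked at most 2 cells of a library. Counts were summed per library and class where at least 20 cells were present. Lists were counted among genes at 10 CPM or more, with a pseudocount of 5 and a limit of 4-fold, and the counting was tested on simulated data. The text names all transcription factors and duct genes with at least 10 UMIs in acinar cells, the 6 highest enzyme and granule genes, the 4 highest of each other list, and outside the lists the 15 highest and 10 lowest ratios. Some genes that this rule names, and part of the genotype, are not reported here, though list counts and sums include every gene of a list. Pnlip, Ctrc, Pla2g1b, Try4, Amy2a5, Erp27, Vim, Top2a and the genes without UMIs were added after their values were seen. Group shares were compared by an exact permutation test. Intervals are exact binomial or Poisson, at 95%, and cover counting error only. Alternatives were thresholds of 5%, 20% and 50%, stricter filters, other pseudocounts, TMM (edgeR 4.0.16), other clusterings and each library left out.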

Additional observations from a re-analysis of the deposited data

How the results depend on the processing

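The difference in acinar share between vehicle and IPI-926 was 0.476 percentage points and kept its direction in all 11 alternatives. When single libraries were left out it ran from 0.127 without vehicle replicate 3 to 0.665 without vehicle replicate 1. Leaving out a library could not reverse the direction, since every vehicle share lay above every IPI-926 share. The setting without doublets removed no acinar cell. The difference was 0.757 with a threshold of 5% and 0.295 with 20%. No paired analysis was possible because the replicate numbers follow accession order and pair no samples across the groups.

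The share of acinar cells of vehicle replicate 3 with Krt19 was 75.0%. It was 41.2% after thinning, 94.5% in cells of at least 5000 UMIs, 25% of the 4 cells at a threshold of 50%, and 39.3% in the 28 cells of the other 5 libraries. The last setting and the depth division were chosen after seeing the data. The summed level of the duct genes, 30661 CPM, was 41053 over non-secretory UMIs, 24278 and 13553 at thresholds of 20% and 50%, 3499 without Clu and Spp1, 31084 in deep cells and 22320 in the other libraries. Of the acinar cells 99.1% shared the acinar cluster, 100% with the 8 genes read and 0% with enzyme and granule genes left out. The 0% was fixed in advance, because that setting left out all acinar markers used to name clusters. Genes past 4-fold higher, 76, became 115 and 42 with pseudocounts of 1 and 20. Genes past 4-fold lower, 76, became 174 and 31, and 50 with TMM.

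The acinar to ductal values come from 1 library and have no replicate. Leaving out vehicle replicate 3 gave no value for them, since no other library had 20 acinar cells. Low-abundance genes are limited by the 2480294 UMIs summed there.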

Other observations

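Some barcodes met the 10% share but failed the filter on cells, and were not analysed further. They numbered 4, 10 and 45 in vehicle replicates 1, 2 and 3 and 0, 4 and 0 in IPI-926 replicates 1, 2 and 3. In vehicle replicate 3, 32 of the 45 had too few genes and 17 had too much mitochondrial RNA.

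Mia and Selenop, both genes of secreted proteins, were higher in deep acinar cells of vehicle replicate 3 with a larger acinar share, with Spearman's rho of 0.69 and 0.65 over 55 cells. Areg, a ligand of the EGF receptor, had rho of -0.65. These are descriptions of cells that share 1 library.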
